A study of Mus musculus with 21 samples.

Results

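Transcripts of 10 tetraspanin genes were followed in microglia and microglia-like cells of the mouse brain: Upk1b, Cd9, Cd81, Cd63, Cd82, Cd37, Cd53, Cd151, Tspan3 and Tspan4. They are the rows carrying these gene names among the 57180 genes of the count table, and the set was put together because Upk1b and Cd9 are low in the monocyte-derived cells. Those 2 genes are therefore only described where monocyte-derived cells are set against another kind of cell, and the other 8 members are tested there. All 10 passed the filter on low counts, as did 18867 genes in all.

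Tetraspanins are small membrane-spanning proteins that gather integrins, proteases and immune receptors into patches of the cell membrane and of endosomes. They steer adhesion, migration, membrane fusion and the release of extracellular vesicles. Macrophages and microglia carry many of them, whereas Upk1b, a uroplakin, is best known from the rigid membrane plaques that line the bladder.

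The series holds RNA-seq of sorted brain cells from 21 libraries. MLC are transplanted monocyte-derived microglia and MG are transplanted microglia, and both carry the genotype Osb-GFP. NoTx are microglia from mice without a transplant, with the genotype CX3CR1-CreER+/-; CSF1R fl/fl. Cells were taken 5 days after seizures induced with kainic acid, an agonist of excitatory glutamate receptors, or after saline. After seizure there were 6 MLC, 4 MG and 3 NoTx libraries, and after saline there were 3 MLC, 3 MG and 2 NoTx libraries. The labels put every seizure library in batch 1 and every saline library in batch 2, and the effects of treatment and of batch cannot be told apart. Comparisons with NoTx also join transplantation to a change of genotype. The labels give neither the age of the animals nor the genotype of the hosts.

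Summed counts per library spanned 6.57 to 73.8 M after seizure and 36.53 to 50.3 M after saline. Thinned to the smallest total, libraries held 8901 to 11984 genes with at least 10 counts, and the 3 lowest were MG seizure replicates 3 and 4 and MLC seizure replicate 5. The slope of log2 level on GC content of a gene, in log2 units per 10 points of GC, ran between -1.55 in MLC seizure replicate 5 and 0.78 in MG saline replicate 3. The summed CPM (library-scaled counts, TMM-normalised) of 7 microglial markers was 12808 to 31782 in MLC, 43771 to 73423 in MG and 50114 to 68591 in NoTx libraries. The sum of 6 markers of monocyte-derived brain macrophages was 9372 to 16687 in MLC, 502 to 788 in MG and 441 to 716 in NoTx seizure libraries, and 850 to 3458 in the NoTx saline pair. The 6 astrocyte markers summed to 4.04 to 139 CPM in MLC seizure and 35.6 to 53 in MLC saline, 337 to 569 in MG seizure and 439 to 512 in MG saline, and 295 to 517 in NoTx seizure and 417 to 448 in NoTx saline libraries, with Aqp4 at 0 in every NoTx library. The 5 platelet markers summed to 0 to 0.295 CPM in MLC seizure and 0.0809 to 3.39 in MLC saline, 24.3 to 54.5 in MG seizure and 52.5 to 87.2 in MG saline, and 8.92 to 104 in NoTx seizure and 21.7 to 41.5 in NoTx saline libraries, with Gp1bb and Ppbp at 0 in every MG and NoTx library. Both sums were lower in MLC, as Upk1b and Cd9 were, and the part of these markers in the MLC differences was not tested. Xist, transcribed in female cells, was above 50 CPM in 0 of the 6 MLC seizure and 0 of the 3 MLC saline libraries, and in 4 of 4 MG seizure and 3 of 3 MG saline libraries. It was above that level in 2 of 3 NoTx seizure and 0 of 2 NoTx saline libraries, so sex and origin of the transplanted cells cannot be told apart. Names of the seizure libraries carry the letter F or M, and what the letters stand for was not established. Libraries of both letters were above that level in MG, and libraries of neither letter were in MLC. MLC seizure replicates 3 and 6 have library names that repeat those of replicates 2 and 4 but for an added 11b. The labels do not say whether animals were shared.

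RefSeq promoter sequences were matched for 9 of the 10 genes, giving 14 starts of transcription on GRCm38.p6. The 250 bases before the start are printed for Cd9, the member besides Upk1b that defined the set. They are also printed for Cd81 and Cd37, lower in MLC than in MG after seizure, and for Cd63, higher in MLC. Capitals mark GAGGAA, the core recognised by the myeloid factor PU.1, and GGGCGG, the GC box, each on either strand. No match overlapped another.
Cd9 chr6:125494761-125495010 (minus strand): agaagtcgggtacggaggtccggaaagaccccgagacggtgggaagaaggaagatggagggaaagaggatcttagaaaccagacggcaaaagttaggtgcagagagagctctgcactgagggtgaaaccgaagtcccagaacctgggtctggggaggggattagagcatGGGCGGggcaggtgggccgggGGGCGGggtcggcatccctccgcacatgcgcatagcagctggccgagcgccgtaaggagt
Cd81 chr7:143052500-143052749 (plus strand): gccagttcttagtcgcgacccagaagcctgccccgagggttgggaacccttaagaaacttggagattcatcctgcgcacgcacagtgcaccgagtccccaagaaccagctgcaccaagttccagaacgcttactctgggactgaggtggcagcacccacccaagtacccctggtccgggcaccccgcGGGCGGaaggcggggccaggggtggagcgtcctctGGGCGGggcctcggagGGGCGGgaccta
Cd37 chr7:45238840-45239089 (minus strand): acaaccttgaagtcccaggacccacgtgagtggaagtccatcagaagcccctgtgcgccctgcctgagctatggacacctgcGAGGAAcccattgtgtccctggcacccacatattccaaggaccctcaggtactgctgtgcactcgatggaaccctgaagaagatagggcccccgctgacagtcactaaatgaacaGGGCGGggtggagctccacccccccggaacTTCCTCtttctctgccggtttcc
Cd63 chr10:128909095-128909344 (plus strand): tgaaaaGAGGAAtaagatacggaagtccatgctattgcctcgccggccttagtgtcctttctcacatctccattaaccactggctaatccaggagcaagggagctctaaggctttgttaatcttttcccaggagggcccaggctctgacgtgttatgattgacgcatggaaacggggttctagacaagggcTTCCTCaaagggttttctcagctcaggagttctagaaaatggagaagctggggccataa

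In these windows Cd9 and Cd81 held 2 and 3 GC boxes and no PU.1 core. Cd63 held 2 PU.1 cores and no GC box, and Cd37 held 2 PU.1 cores and 1 GC box. Of the 14 member promoters, 4 held a PU.1 core, 7 a GC box and 0 the TATA box TATAAA. Among all 32851 promoters of the same length the shares were 23.3%, 32.7% and 12.4%. A match of letters is a description and not a binding site.

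Upk1b showed the widest range of the 10 genes. Its CPM was 1.53, 0.808, 1.80, 1.04, 3.11 and 0.884 in MLC after seizure, and 207, 178, 305 and 233 in MG after seizure. In NoTx microglia after seizure it was 617, 804 and 373. After saline it was 0.261, 0.432 and 0.226 in MLC, 114, 159 and 75.4 in MG, and 452 and 557 in NoTx. No MLC library came near any MG or NoTx library. These MLC levels rest on 6 to 61 counts per library after seizure and 12 to 16 counts after saline, so Upk1b was detected in each of the 9 MLC libraries.

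The fitted log2 fold change of Upk1b in MLC against MG was -7.25 ± 0.39 (SE) after seizure and -8.56 ± 0.58 after saline, a 152-fold and a 378-fold lower level. Against NoTx it was -8.62 ± 0.42 after seizure and -10.68 ± 0.63 after saline. These values carry no test, because the gene was chosen for them. In bulk libraries of sorted cells, fewer cells with the transcript and less transcript per cell cannot be told apart. In ascending order of the group mean, Upk1b stood at 0.306 CPM in MLC saline, 1.53 in MLC seizure, 116 in MG saline, 230 in MG seizure, 504 in NoTx saline and 598 in NoTx seizure. The NoTx groups overlapped, and every other neighbouring pair of groups in this order was separate.

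**Figure D1:**
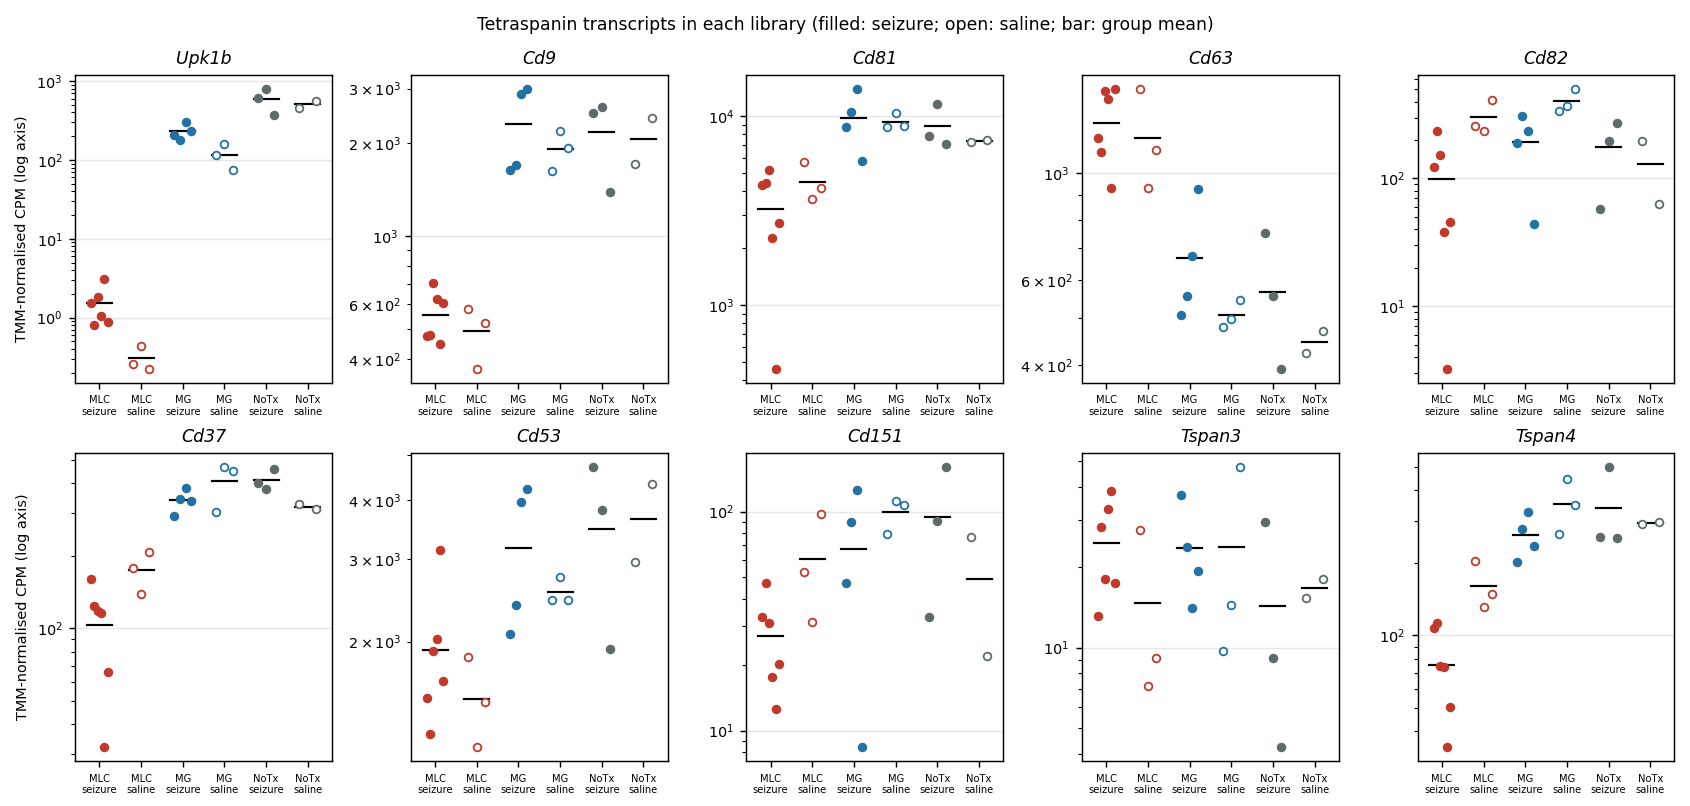
TMM-normalised CPM on log axes for each of the 10 tetraspanins in the 21 libraries, grouped on the horizontal axis by cells and treatment, with bars at group means. Upk1b in MLC lies between 0.226 and 3.11 CPM, below every MG and NoTx library, and Cd63 is the member whose MLC libraries all lie above the others.

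Cd9, which takes part in membrane fusion, motility and vesicle formation, was also low in MLC but remained abundant. It had 473, 476, 703, 624, 447 and 607 CPM in MLC after seizure, against 1629, 1695, 2889 and 3000 in MG and 2497, 2605 and 1389 in NoTx. After saline it had 578, 372 and 523 CPM in MLC, 1620, 2185 and 1931 in MG, and 1705 and 2410 in NoTx. The highest MLC library of either treatment lay below the lowest MG or NoTx library. The log2 fold change of MLC against MG was -2.05 ± 0.24 after seizure and -1.96 ± 0.32 after saline, and against NoTx it was -1.96 ± 0.26 and -2.07 ± 0.34. These too are given without a test. Without the 3 libraries that held the fewest genes at equal depth, the value against MG after seizure was -1.41. Reads of Cd9 can be shared with the genes Gm26728 and Gm28809 on the opposite strand, and no source used here says whether counting used strand.

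Of the other 8 members, 1 rose and 3 fell in MLC against MG after seizure by edgeR's quasi-likelihood test at an adjusted p of 0.05. Where MLC is set against other cells, rose and fell mean higher and lower in MLC, not a change with seizure. Over all tested genes, 2.51% were higher and 3.37% lower in this comparison, 5.88% in all. The split of those calls depends on the scaling: 42.7% of them were higher with TMM factors, 53.3% with RLE factors, which move the median of all genes by 0.12 on the log2 scale, and 55.4% with a GC trend fitted per library. After saline, 1 of the 8 rose and 0 fell, with 0.779% of genes higher and 0.806% lower, 1.58% in all. Members whose MLC and MG libraries did not overlap were 1 higher and 3 lower after seizure, where 2.44% and 2.96% of all genes did so, and 1 higher and 4 lower after saline, where 10.4% and 12.4% did. No direction given here for a member in MLC against MG turned under RLE factors.

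The member that rose was Cd63, the tetraspanin of late endosomes, lysosomes and exosomes. Its CPM was 1182, 1104, 1481, 1425, 933 and 1497 in MLC after seizure, against 507, 557, 672 and 929 in MG. After saline it was 1498, 931 and 1119 in MLC, against 479, 499 and 546 in MG. No MLC library overlapped an MG library, although MLC seizure replicate 5 and MG seizure replicate 4 nearly met. The log2 fold change was 0.93 ± 0.24 after seizure (adjusted p = 0.02) and 1.22 ± 0.29 after saline (adjusted p = 0.032). The seizure call was lost without MG replicate 1, 2 or 3 (adjusted p 0.069, 0.062 and 0.052) and without the pair of libraries coded 11b (0.063). The saline call was lost when MLC replicate 1 or 3 was left out (0.18 and 0.054), or MG replicate 1, 2 or 3 (0.12, 0.12 and 0.091), and when a GC trend was fitted (0.079). The value stayed between 0.82 and 1.76 after seizure and between 1.03 and 1.51 after saline over the fits tried.

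Cd37 and Tspan4 were lower in MLC than in MG among the seizure libraries. Cd37, a tetraspanin of B cells and other leukocytes, had 160, 124, 118, 116, 32.2 and 65.6 CPM in MLC, against 292, 345, 382 and 336 in MG. Tspan4, which is needed for migrasomes, the vesicles left behind on the trailing fibres of migrating cells, had 107, 113, 74.6, 73.9, 34.5 and 50.4 CPM in MLC, against 202, 277, 326 and 235 in MG. Neither gene had an MLC library within the MG range. The log2 fold changes were -1.72 ± 0.30 for Cd37 (adjusted p = 7.1e-04) and -1.78 ± 0.30 for Tspan4 (adjusted p = 4.7e-04), and both calls held in each of 10 other fits and in each of 21 that left out a library (adjusted p up to 0.023 and 0.015). After saline, Cd37 had 177, 139 and 207 CPM in MLC, against 304, 467 and 448 in MG, and Tspan4 had 203, 131 and 149 in MLC, against 263, 444 and 348 in MG. The groups again did not overlap, but the log2 fold changes, -1.22 ± 0.39 and -1.13 ± 0.39, missed the limit (adjusted p 0.18 and 0.25). Over the other fits the adjusted p ran between 5.6e-04 and 0.73 for Cd37 and between 0.0031 and 0.82 for Tspan4, and the lowest came from limma-voom. Tspan4 overlaps Chid1 and Cd37 overlaps Tead2, each on the opposite strand. Cd81, Cd82 and Cd151 overlap other genes as well, while Cd63 overlaps none.

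Cd81, an organiser of the B-cell coreceptor and in humans an entry receptor of hepatitis C virus, was the most abundant member. It had 4294, 4399, 5163, 2271, 460 and 2700 CPM in MLC after seizure, against 8759, 10488, 13987 and 5763 in MG. The highest MLC and the lowest MG library lay close together, and MLC replicate 5, at 460 CPM, was far below the rest of its group. Cd81 fell by 1.60 ± 0.39 on the log2 scale (adjusted p = 0.015). The call was lost without MG replicate 3 (0.071), with no filter on low counts (0.075) and in a fit of these 2 groups alone (0.12). After saline Cd81 had 5677, 3621 and 4184 CPM in MLC, against 8783, 10325 and 8857 in MG, with a log2 fold change of -1.05 ± 0.50 (adjusted p = 0.62).

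The remaining 4 members were not called between MLC and MG. Cd53, found on most leukocytes, had a lowest, median and highest CPM of 1273, 1780 and 3130 in MLC after seizure, against 2074, 2388, 3963 and 4230 in MG, and the groups overlapped (log2 fold change -0.72 ± 0.28, adjusted p = 0.12). With a GC trend fitted per library its adjusted p was 0.0048, the lowest of a range up to 0.66 over the other fits. After saline, Cd53 had 1857, 1193 and 1487 CPM in MLC, against 2450, 2751 and 2447 in MG, with no overlap (log2 fold change -0.75 ± 0.36, adjusted p = 0.61). Cd151, a partner of laminin-binding integrins, had a mean of 26.9 ± 12.6 CPM in MLC and 67.5 ± 50.6 in MG after seizure (SD, n = 6 and 4), and Cd82, first described as a suppressor of metastasis, had 99.5 ± 87.1 in MLC and 194 ± 111 in MG. Their log2 fold changes were -1.33 ± 0.55 and -0.96 ± 0.67 (adjusted p 0.14 and 0.40). Without MG replicate 4, where Cd151 had 8.42 CPM, the Cd151 value was -1.70 with an adjusted p of 0.046, the lowest of a range up to 0.65. Tspan3 had the lowest group means outside MLC. It had 13.1 to 38.6 CPM in MLC and 14.1 to 37.3 in MG after seizure (adjusted p = 0.99).

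Set against NoTx microglia, MLC showed the same division of members after seizure: 1 of the 8 rose and 3 fell, where 2.55% of all genes were higher and 3.61% lower, 6.16% in all. With a GC trend fitted, 53.0% of the calls over all genes were higher, against 41.4% without it. Groups separated for 1 higher and 3 lower members, beside 4.12% and 5.1% of all genes. MLC seizure libraries stand in both comparisons, so they are not independent. Cd63 had 752, 557 and 393 CPM in NoTx, below every MLC library (log2 fold change 1.16 ± 0.27, adjusted p = 0.009). Without NoTx replicate 3 its adjusted p was 0.072. Cd37 had 402, 379 and 456 CPM and Tspan4 256, 501 and 254 CPM in NoTx, above every MLC library. Their log2 fold changes were -2.0 ± 0.32 (adjusted p = 2.6e-04) and -2.16 ± 0.32 (adjusted p = 1.0e-04), held in each of those 31 fits. Cd81 had 7834, 11535 and 7129 CPM in NoTx and fell in MLC by 1.46 ± 0.42 (adjusted p = 0.04), a call that held in 7 of 10 other fits and in 10 of the 21 that left out a library. The adjusted p was 0.17 without NoTx replicate 2, 0.064 without replicate 1, 0.063 without replicate 3, and 0.083 and 0.079 without MLC replicates 4 and 6. Leaving out an MLC or MG saline library moved it to between 0.05 and 0.056. Cd53 was not called (log2 fold change -0.86 ± 0.30, adjusted p = 0.092), although 4 of 10 other fits called it, among them the fit without the 3 libraries of fewest genes (0.023; range over all fits 0.0017 to 0.3).

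After saline the MLC-NoTx comparison called 1 of the 8, Cd63, as higher, where 0.445% of genes were higher and 0.811% lower, 1.26% in all. Cd63 had 423 and 471 CPM in NoTx (log2 fold change 1.40 ± 0.34, adjusted p = 0.039). This call rested on few libraries: without either NoTx saline library the adjusted p was 0.45 or 0.35, without MLC saline replicate 1 or 3 it was 0.16 or 0.068, without MLC seizure replicate 1 or NoTx seizure replicate 2 it was 0.053, and with a GC trend it was 0.53. It was also lost under the replicate block (0.062), and the range over all other fits was 2.8e-05 to 0.53. Cd53 had 2960 and 4340 CPM in NoTx, above every MLC library, with a log2 fold change of -1.27 ± 0.39 (adjusted p = 0.17). Cd81, Cd37 and Tspan4 were separate from NoTx as well, at log2 fold changes of -0.71 ± 0.55, -0.87 ± 0.42 and -0.86 ± 0.42 (adjusted p 0.96, 0.62 and 0.63). Groups of this size separate often: 15.3% of all genes lay higher and 18% lower with no overlap, beside 2 and 4 of the 8 members.

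**Figure D2:**
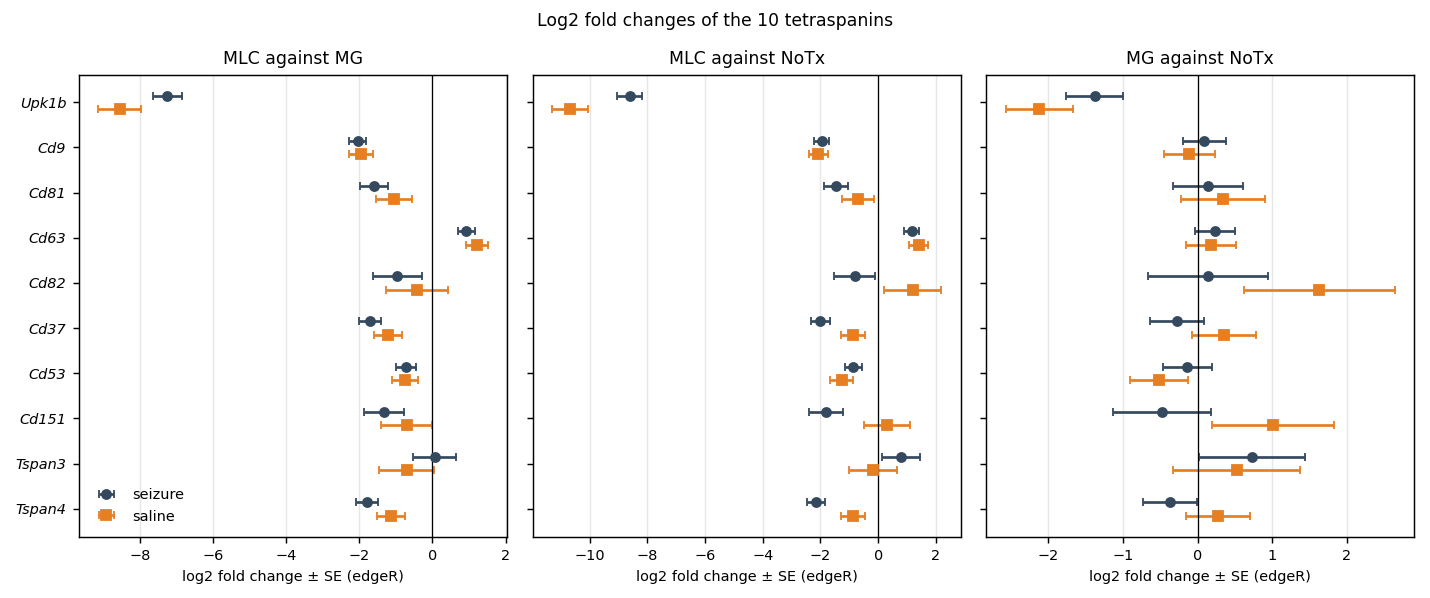
Log2 fold changes with their SE from edgeR for the 10 tetraspanins, in MLC against MG, MLC against NoTx and MG against NoTx, after seizure (circles) and after saline (squares). Upk1b lies at -7.25 or lower in MLC, Cd63 lies above 0 in both MLC panels, and in MG against NoTx Upk1b lies furthest from 0 after either treatment.

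Levels were also divided by exon length (CPM per kb of exon, with lengths from the GENCODE vM21 annotation of GRCm38). The length is the union of all annotated exons, which can exceed that of the transcript expressed. Effects of GC content were not removed here, so the order between genes is only approximate. In MLC saline cells Cd81 (1561) and Cd53 (868) led, Cd63 (321) and Cd9 (240) followed, and Upk1b (0.147) was last. In MG saline cells Upk1b (55.6) lay between Cd37 (115) and Cd151 (36.3). In NoTx saline microglia the order of the mean per kb was Cd81 (2562), Cd53 (2095), Cd9 (1007), Upk1b (241), Tspan4 (134), Cd63 (121), Cd37 (90.7), Cd82 (43.4), Cd151 (18) and Tspan3 (3.91).

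**Figure D3:**
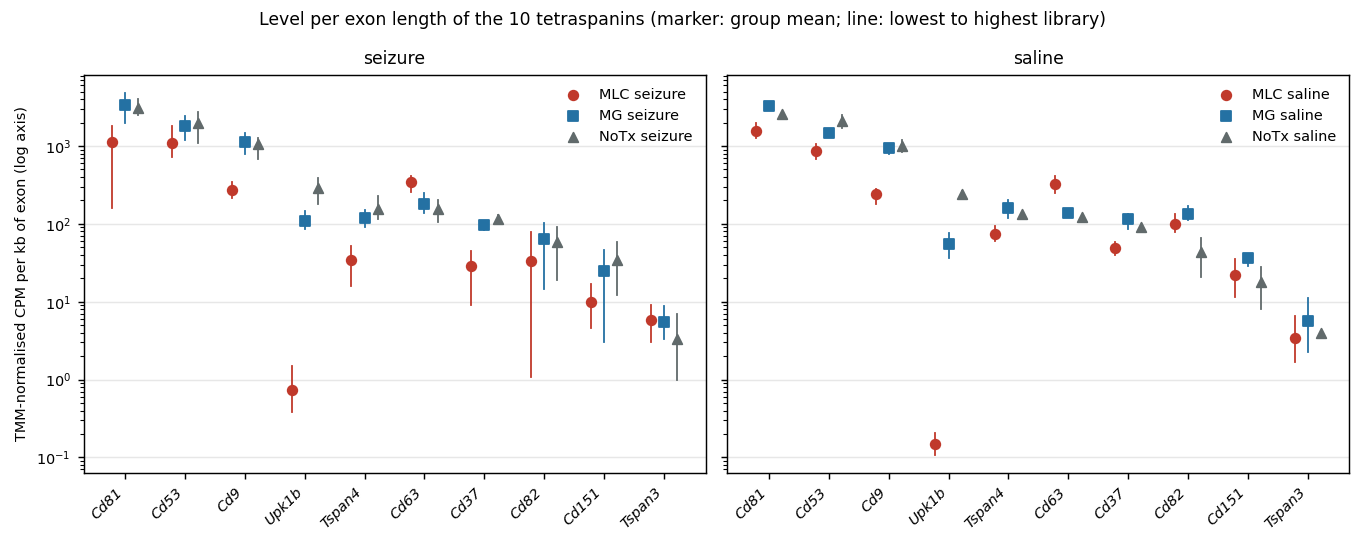
Mean TMM-normalised CPM per kb of exon on a log axis for the 10 tetraspanins in MLC, MG and NoTx cells, after seizure on the left and after saline on the right, with lines spanning the lowest to the highest library. Genes are ordered by their NoTx saline level. Upk1b is at 0.147 in MLC saline, 55.6 in MG saline and 241 in NoTx saline cells, and Cd63 is at 321, 138 and 121.

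Transplanted microglia were set against NoTx microglia with all 10 members tested, since the stated reason for the choice names only MLC. The members were still chosen with earlier results of these data known. The edgeR test called 0 of 10 after seizure and 0 of 10 after saline, where 0.0742% and 0.053% of all genes were called, and in each comparison 1 of the 10, Upk1b, had an unadjusted p under 0.05, as did 11.1% and 3.4% of all genes. Upk1b was lower in each MG library than in any NoTx library of the same treatment. Its log2 fold change was -1.38 ± 0.38 after seizure (adjusted p = 0.23) and -2.12 ± 0.45 after saline (adjusted p = 0.11). DESeq2 (adjusted p 0.0071 and 8.3e-04) and limma-voom (0.023 and 6.8e-06) called it in both comparisons. After saline it was also called with no filter (0.01), without the 3 libraries of fewest genes (0.025) and without MLC seizure replicate 5 alone (0.026), a library of neither group. Over all other fits the adjusted p reached 1 in each comparison. MG libraries lay below all NoTx libraries for 2.09% of genes after seizure and 18.3% after saline. Upk1b was the 1 member that separated after seizure. After saline 2 members lay lower, Upk1b and Cd53, and 4 lay higher, Cd81, Cd63, Cd82 and Cd151. The share of all genes on the higher side was not counted, so the number of higher members cannot be set against it. By the edgeR test the unadjusted p of these 4 was 0.55, 0.58, 0.12 and 0.23. Cd9 overlapped between MG and NoTx, with log2 fold changes of 0.09 ± 0.29 after seizure and -0.11 ± 0.34 after saline (adjusted p = 1 for each). The 4 neutrophil markers summed to 1.08 to 2.07 CPM in MG seizure and 0.888 to 1.96 in MG saline libraries, against 1.59 to 237 in NoTx seizure and 12.7 to 405 in NoTx saline libraries, and their part in these differences was not tested.

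Csf1r and Cx3cr1, the genes altered in the NoTx genotype, varied widely within groups. Csf1r averaged 2536 ± 1279 CPM in MG and 3993 ± 3995 in NoTx after seizure (SD, n = 4 and 3), and 7817 ± 3445 in MG and 1835 ± 1542 in NoTx after saline (n = 3 and 2). Cx3cr1 averaged 3629 ± 1328 CPM in MG and 2641 ± 1887 in NoTx after seizure, and 9325 ± 1408 in MG and 1877 ± 1259 in NoTx after saline. Whether these counts reflect the altered alleles was not tested.

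Seizure libraries were compared with saline libraries within each kind of cell, and edgeR called 0 of the 10 members in MLC, MG or NoTx. The share of all genes called was 0% in MLC, 0.0371% in MG and 0.106% in NoTx. At an unadjusted p under 0.05 there were 4 members in MLC, 1 in MG and 0 in NoTx, beside 11.9%, 11.8% and 7.35% of all genes. Upk1b in MLC had the smallest of these p values: its log2 fold change was 2.30 ± 0.44 (adjusted p = 0.25), and no seizure library overlapped a saline library, which held for 1.23% of genes on the higher side. DESeq2 called it (1.3e-05), as did edgeR with no filter on low counts (0.0052), and the remaining fits reached up to 0.77. In MG the Upk1b value was 0.99 ± 0.39 (adjusted p = 0.40) with separate groups, as for 4.02% of genes on the higher side, and in NoTx it was 0.25 ± 0.46 (adjusted p = 1) with overlap. The difference between these responses was itself tested and not called: 1.31 ± 0.56 for MLC minus MG (adjusted p = 0.89) and 0.74 ± 0.59 for MG minus NoTx (adjusted p = 0.85). No member passed either of these interaction tests by edgeR, DESeq2 or limma-voom, and 1 and 0 of the 10 had an unadjusted p under 0.05, beside 5.49% and 7.12% of all genes, where 0% and 0.0106% were called.

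The other MLC members with an unadjusted p under 0.05 were Cd82, Cd37 and Tspan4. Cd82 had 122, 236, 152, 38.4, 3.25 and 45.6 CPM in MLC after seizure, against 258, 236 and 409 after saline (adjusted p = 0.39). Tspan4 had 34.5 to 113 CPM in MLC after seizure, against 131 to 203 after saline (log2 fold change -1.09 ± 0.32, adjusted p = 0.30). Cd37 had 32.2 to 160 CPM against 139 to 207 (adjusted p = 0.37). In NoTx, Cd82 had 57.4, 197 and 274 CPM after seizure, against 198 and 63.2 after saline, without a common direction (adjusted p = 1).

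Some members moved with the GC trend of the libraries. Cd82 (55.3% GC in its longest transcript) and Cd151 (54.4% GC) were low where the trend was negative: Cd82 had 3.25 CPM in MLC seizure replicate 5, with a slope of -1.55, and 44.2 CPM in MG seizure replicate 4, with a slope of -0.43. Their highest values, 506 CPM for Cd82 in MG saline replicate 3 and 160 CPM for Cd151 in NoTx seizure replicate 3, came with slopes of 0.78 and 0.64. MLC seizure replicate 5 was also lowest of its group for Cd81 (50.3% GC), Cd37 (57.3%), Tspan4 and Cd63 (58.1% each), Cd151 and Cd9 (45.9%). It was highest for Cd53 (3130 CPM; 40.0% GC), Tspan3 (46.1%) and Upk1b. After seizure Cd63 was higher in MLC than in MG and NoTx, while Tspan4, of the same GC content, was lower. The slopes of the MLC seizure libraries were -1.55 to 0.10, against -0.43 to 0.45 in MG seizure and -0.35 to 0.64 in NoTx seizure. Upk1b (47.9% GC) in MLC lay far below the other cells over the slopes that the kinds of cell share. No MG or NoTx library had a slope below -0.43, and no MLC library had one above 0.48. Slope and kind of cell are thus partly tied, and the part of the GC trend in the MLC differences was not tested. With the trend fitted per library, Cd37, Tspan4 and Cd81 kept their calls in MLC against MG after seizure. In that fit Cd63 in MLC was no longer called after saline against MG (adjusted p = 0.079) or NoTx (0.53), and Cd53 was called after seizure against MG (0.0048) and NoTx (0.0017). Over all fits these adjusted p ran between 6.0e-06 and 0.18, 2.8e-05 and 0.53, 0.0048 and 0.66, and 0.0017 and 0.3.

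**Figure D4:**
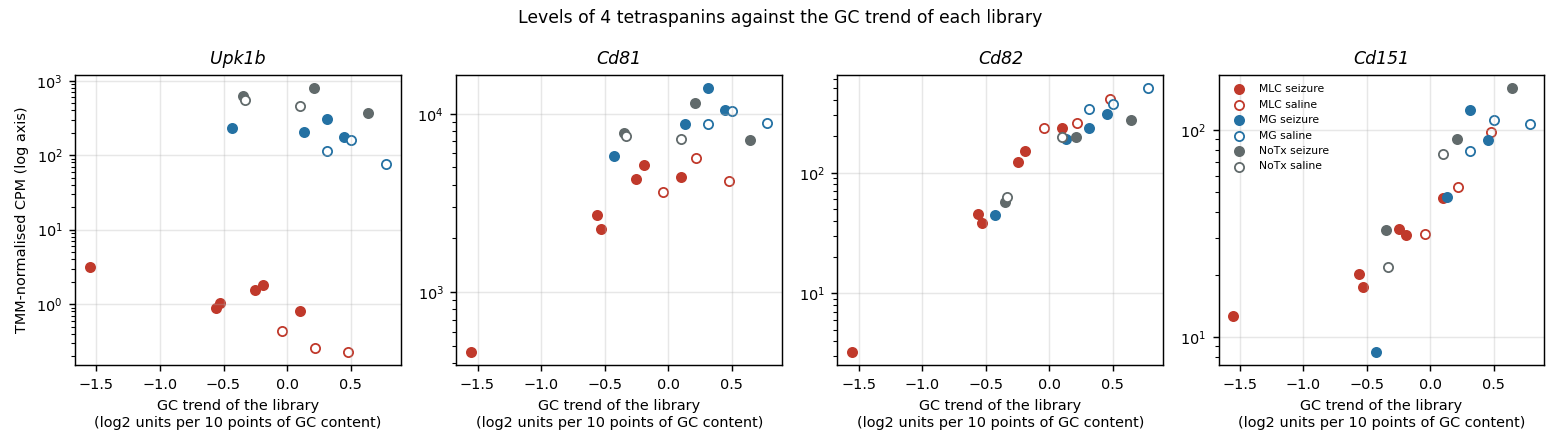
TMM-normalised CPM on log axes of Upk1b, Cd81, Cd82 and Cd151 against the GC slope of each library in log2 units per 10 points of GC content, with cells by colour and seizure filled. Cd82 and Cd151 run low to high along the axis across cells, with 3.25 CPM of Cd82 at a slope of -1.55. Upk1b separates by cell over the slopes that the kinds of cell share.

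The wider family was written as 32 genes, of which 31 were in the table and 23 were tested. Leaving out the 10 members, 13 of 22 were tested. In MLC against MG 0 of these 13 rose and 2 fell after seizure, and 0 rose and 1 fell after saline. In MLC against NoTx 0 rose and 3 fell after seizure, and 0 rose and 1 fell after saline. Over all tested genes 2.51% were higher and 3.37% lower, 0.779% and 0.806%, 2.55% and 3.61%, and 0.445% and 0.811% in the same order of comparisons. The median of the 13 family genes, as a log2 fold change, was -0.41, -0.62, -0.71 and -0.26 in these 4 comparisons, against 0.00, 0.00, 0.00 and 0.08 over all genes. Tspan7, a tetraspanin also known from neurons, fell in all 4. It had 36.7 ± 19.4 CPM in MLC, 379 ± 54.1 in MG and 394 ± 116 in NoTx after seizure (SD, n = 6, 4 and 3), and 24.6 ± 4.15 in MLC, 370 ± 39.1 in MG and 449 ± 27.9 in NoTx after saline (n = 3, 3 and 2). Its log2 fold change against MG was -3.37 ± 0.43 after seizure (adjusted p = 1.5e-05) and -3.91 ± 0.59 after saline (adjusted p = 3.1e-04), and against NoTx -3.42 ± 0.45 (adjusted p = 2.7e-05) and -4.19 ± 0.62 (adjusted p = 4.3e-04). Every other fit kept these calls.

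Among seizure libraries, Tspan13 was lower in MLC by 1.10 ± 0.33 against MG (adjusted p = 0.048) and by 1.31 ± 0.35 against NoTx (adjusted p = 0.028). Tspan14, which escorts the protease ADAM10 to the cell surface, was lower in MLC seizure than in NoTx seizure libraries by 1.77 ± 0.52 (adjusted p = 0.044). These 3 calls were near the limit. With a library left out they held in 4, 17 and 8 of 21 fits. The value of Tspan13 against MG was -0.67 (adjusted p = 0.41, the highest of its range) without the 3 libraries of fewest genes, and that of Tspan14 was -1.28 (adjusted p = 0.25, the highest of its range) without NoTx seizure replicate 3. The other uroplakins were nearly silent: Upk3a and Upk3bl had no count in any library, and Upk1a, Upk2 and Upk3b reached at most 2.01, 0.0684 and 0.0233 CPM.

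A list of 22 genes linked to tetraspanins, called partners here though not all are direct partners, was written, and 18 were tested. In MLC against MG 2 rose and 2 fell after seizure and 1 rose and 1 fell after saline, and in MLC against NoTx 1 rose and 3 fell after seizure and 0 rose and 1 fell after saline. The shares of all tested genes called, in either direction, were 5.88%, 1.58%, 6.16% and 1.26% in these 4 comparisons. The median log2 fold changes of the partners were -0.33, -0.28, -0.53 and 0.05, against 0.00, 0.00, 0.00 and 0.08 over all genes. Itga4, the alpha chain of the integrin VLA-4 and a partner of CD81, averaged 105 ± 25.0 CPM in MLC and 2.12 ± 4.10 in MG after seizure, a log2 fold change of 5.55 ± 1.10 (adjusted p = 0.0027), and 145 ± 56.1 in MLC and 2.42 ± 0.546 in MG after saline (5.90 ± 1.31, adjusted p = 0.018). The seizure value ran between 5.16 and 14.58 over the other fits. MG seizure replicate 4 had 8.26 CPM where the median of its group was 0.106, and without it the value was 9.76 (adjusted p = 7.9e-07, range over all fits 1.9e-08 to 0.022). The saline call was lost without MLC replicate 2 (0.051) or without MG replicate 1, 2 or 3 (0.11, 0.11 and 0.09). Rab27a, which docks multivesicular bodies for exosome release, fell in all 4 comparisons, by 1.90 ± 0.36 against MG after seizure (adjusted p = 0.0017). That call held in 30 of 31 other fits and was lost without the 3 libraries of fewest genes (-1.38, adjusted p = 0.051). With no filter on low counts the saline call against MG was lost (adjusted p = 0.058). The saline calls of Rab27a held in 15 of 21 fits with a library left out against MG and in 17 of 21 against NoTx. Against MG the adjusted p was 0.2 and 0.11 without MLC saline replicates 1 and 3, 0.086, 0.092 and 0.077 without MG saline replicates 1, 2 and 3, and 0.05 without NoTx saline replicate 2. Against NoTx it was 0.14 and 0.096 without the same MLC libraries, and 0.13 and 0.22 without NoTx saline replicates 1 and 2. Trem2, a lipid receptor of microglia, was lower in MLC among seizure libraries, by 1.05 ± 0.23 against MG (adjusted p = 0.0057) and by 1.01 ± 0.24 against NoTx (adjusted p = 0.015). The value against MG was -0.59 (adjusted p = 0.15) without the 3 libraries of fewest genes, and its call was also lost in a fit of the 2 groups alone (0.085; range over all fits 4.7e-04 to 0.15). Against NoTx the call was lost without NoTx replicate 2 (0.12), with the GC trend (-0.58, adjusted p = 0.064), under the replicate block (0.05) and with the 2 groups alone (0.13), over a range of 0.0021 to 0.13. Msn, which encodes moesin, a linker of membrane and actin, fell against NoTx after seizure by 1.29 ± 0.37 (adjusted p = 0.043), a call that held in 5 of 10 other fits and in 9 of the 21 that left out a library. Its value was -0.82 without NoTx replicate 3 (adjusted p = 0.29) and -0.78 under the replicate block (0.2), and it was also not called with RLE factors (0.062), with the GC trend (0.065), without the libraries coded 11b (0.093) or with the 2 groups alone (0.17). Leaving out MLC seizure replicate 1, 4 or 6 gave 0.052, 0.081 and 0.088, NoTx seizure replicate 2 gave 0.084, and MG seizure replicate 1 or any MLC or MG saline library gave 0.05 to 0.061. The adjusted p ran between 0.023 and 0.29 in all. Cr2 was called higher in MLC against MG after seizure from 1.76 CPM on average in MLC and 0 in MG.

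Across the 21 libraries, the genes whose log2 CPM followed Upk1b most closely, among the 5962 tested genes that averaged log2 CPM 4 or more, were Ccl9 (Pearson r = 0.978), P2ry12 (0.977), Tmem100 (0.975), Sparc (0.973) and Jam2 (0.972). P2ry12 encodes the purinergic receptor that marks homeostatic microglia. It averaged 2162 CPM in MLC, 15222 in MG and 17918 in NoTx after seizure. Jam2, a junctional adhesion molecule, had the widest gap of these 5 genes, with 1.79 CPM in MLC, 208 in MG and 200 in NoTx after seizure. The genes that ran most against Upk1b were Cd72 (-0.950), Gpr65 (-0.948) and Nrp1 (-0.945). Cd9 was ranked 20 for likeness to Upk1b (0.939), Cd53 168 (0.782), Cd37 205 (0.752), Tspan4 219 (0.743) and Cd81 451 (0.626), while Cd63 ran against it (-0.854). Cd151 was ranked 1769 (0.309), Cd82 2937 (0.124) and Tspan3 4067 (-0.082). Without the 3 libraries of fewest genes the value for Cd81 was 0.825 and that for Cd9 0.957. Upk1b and Cd9 were both chosen as low in MLC, so a high correlation between them follows from the choice.

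For Cd9 the closest genes included Gng10 (0.985), Cst3 (0.982), Ldhb (0.981) and Tmem100 (0.976), and the most opposed were Sdc4 (-0.943), Lilrb4a (-0.933) and Msr1 (-0.931). Cst3, which encodes the protease inhibitor cystatin C, averaged 9484 CPM in MLC, 41915 in MG and 42493 in NoTx after seizure. Msr1, a scavenger receptor, averaged 232 CPM in MLC, 2.4 in MG and 1.93 in NoTx after seizure. These correlations describe 21 libraries that fall into kinds of cell. The libraries of a kind of cell share that gap from the others, and the correlations carry no p.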

How the data were processed

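The members, the gene lists and the naming rule were chosen with earlier results of these data known. The values are the authors' deposited estimated counts per gene, rounded here to whole numbers. The submitters' processing notes name Trim Galore 0.6.7, cutadapt 3.4, STAR 2.7.10a, featureCounts and the build GRCm39. No source used here says how fractions arose. Fractions over 0.01 occurred for Cd63 in 21, for Cd9 and Tspan4 in 20 each, and for Cd151 in 17 of 21 libraries, so reads may be split with other genes there. Cd63 overlaps no gene in GENCODE vM21, so the source of its fractions is not known. Cd37 had such fractions in 0 libraries. Per the labels' protocols, RNA of sorted cells was amplified with a low-input PCR kit. Counts without molecular identifiers are not independent molecules.

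The labels name biological replicates without naming animals, so p values measure the spread between these samples. edgeR 4.0.16 (R 4.3.3; filter by expression within groups, TMM, robust quasi-likelihood) was fitted to 21 libraries with 6 group means and no covariate, and 11 comparisons were drawn from it. Benjamini-Hochberg adjustment ran over 18867 genes within each comparison (limit 0.05). The SE is the absolute log2 fold change over the square root of F. Exon lengths and GC content were matched by gene ID to GENCODE vM21, and 95.4% of tested genes had a GC value. Likeness used log2 CPM with a prior count of 2. Named were the 10 members, list genes that passed a test, Csf1r, Cx3cr1, and the 5 genes most and 3 least like Upk1b and Cd9, of which 1 is not reported here. Other fits were DESeq2 1.42.0, limma-voom 3.58.1 with quality weights, RLE factors, no filter, a GC trend, replicate and library-code blocks, omitted libraries and the compared groups alone. The steps were tested on simulated data.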

Additional observations from a re-analysis of the deposited data

Results flagged for a closer look

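Libraries standing apart from the rest of their group were sought with Dixon's test in the 76 groups of 4 or 6 libraries formed by 38 genes, among them those named above with a level. It marked 8 groups, and chance marks about 1 in 20. None of the 10 members was among them. These 8 were noted from their values and no explanation was tested.

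In MLC after seizure, Cx3cr1 had 2968 CPM in replicate 2, where the median of the group was 1148. Trem2 had 593 CPM in replicate 5, against a median of 1241, and this replicate is among the 3 libraries of fewest genes. Jam2 had 4.83 CPM in replicate 4 (median 1.22), and Gng10 had 208 CPM in replicate 3 (median 117). Upk1a had 2.01 CPM in replicate 3 and was at 0 in the group's median.

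In MG after seizure, Itga4 had 8.26 CPM in replicate 4 (median 0.106), Nrp1 had 226 CPM in replicate 3 (median 142), and Tspan13 had 175 CPM in replicate 1 (median 281). MG replicates 3 and 4 are also among the libraries of fewest genes.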

How the results depend on the processing

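The log2 fold changes of Upk1b and Cd9 in MLC kept their sign in 10 other fits and in 21 that left out a library. Depth limits Upk1b in MLC, which rests on 6 to 61 counts, and groups of 2 to 3 libraries limit every saline call. The causes of the changes below were not tested. Each library was left out in turn, and a group reduced to 1 library took its spread from the others.

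For the 8 members other than Upk1b and Cd9, the number called in MLC against MG was 4 after seizure and 2 to 5 with a library left out, and 1 after saline, 0 to 2 with a library left out. The saline number was 5 by limma-voom, 3 under the replicate block, without the 3 libraries of fewest genes or with the 2 groups alone, and 0 with the GC trend or the code block. In MLC against NoTx after saline it was 1, 0 to 1 with a library left out, 3 by limma-voom, 2 with no filter or without the 3 libraries, and 0 with the GC trend, the replicate block, the code block or the 2 groups alone. Of all 10 members in MG against NoTx, 0 were called, but 1 after seizure by DESeq2 and by limma-voom, and 1 after saline by both, with no filter and without the 3 libraries, and 0 to 1 with a library left out. In MLC after seizure against saline 0 were called, but 1 by DESeq2 and 1 with no filter. No other number of called members moved by over 1.5 times.

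Reversals of sign concerned uncalled values near 0. Cd9 in MG against NoTx after seizure was -0.24 by limma-voom, -0.07 under the replicate block, -0.41 without the 3 libraries, and -0.15 to 0.25 with a library left out (-0.04, -0.06 and -0.15 without MG replicate 3, MG replicate 4 and NoTx replicate 3). After saline it was 0.07 with the GC trend and -0.33 to 0.17 with a library left out. Upk1b in NoTx after seizure against saline was -0.09 under the replicate block and -0.03 to 0.49 with a library left out.

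Deviations of same-numbered libraries from their group means had correlations of -0.06 to 0.13. Libraries that share a code in their names had -0.06 to 0.16, and pairs that share neither had -0.18 to 0.18. Not every library correlated best with its own number. The group means rest on few libraries, so these values cannot decide whether libraries are paired. Over all genes the number called ranged over the fits between 502 and 2447 in MLC against MG after seizure (1109 as reported), 181 and 1698 after saline (299), 606 and 2748 in MLC against NoTx after seizure (1162), 79 and 1551 after saline (237), 0 and 627 in MG against NoTx after seizure (14), 1 and 439 after saline (10), and 0 and 137, 0 and 274, and 0 and 218 for seizure against saline in MLC, MG and NoTx (0, 7 and 20). For the interactions they were 0 and 143 (0) and 0 and 189 (2). The highest came from DESeq2 or limma-voom.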
